A study of Mus musculus with 12 samples.

Results

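The 8 genes described here, Hmgcs1, Mvd, Idi1, Fdps, Fdft1, Sqle, Lss and Cyp51, encode enzymes of the mevalonate and sterol pathway, in which cholesterol is built from acetyl-CoA. They were chosen by gene symbol through their Ensembl identifiers in the mouse GENCODE M21 annotation. All 8 were found among the 53715 genes of the count table, and all 8 were among the 16558 genes that passed the filter on low counts. Every intestinal cell can make cholesterol, and the small intestine also takes it up from the lumen. When sterol in the endoplasmic reticulum is low, SCAP escorts the factor SREBP2 (gene Srebf2) to the Golgi, where it is cleaved, and the released part switches on the synthesis genes. SREBP2 is known to act with the factors NF-Y and Sp1, whose recognition letters often lie near its own.

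RNA was sequenced from the mucosa of ileum and colon of 8-week-old male mice on the C57BL/6J strain, in 12 libraries that form 4 groups of 3. The KO mice (Slc39a8-IEC KO) are Slc39a8 fl/fl with Villin-Cre, so the metal ion transporter Slc39a8 is deleted where the Villin promoter drives Cre, in intestinal epithelial cells. The control mice are labelled Slc39a8 fl/fl, while the study's methods say that floxed animals, wild-type animals and Villin-Cre carriers all served as controls. The labels do not say whether an ileal and a colonic library came from the same mouse, and other mucosal cells, which keep Slc39a8, are part of every library. Because whole mucosa was used, a smaller share of expressing cells and less RNA per cell cannot be told apart.

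The libraries held 16749138 to 27903083 expected counts, and levels below are CPM, counts scaled to a common library total, with TMM factors for differences in composition. Slc39a8 itself was at 5.22 to 8.39 CPM in the ileal libraries of control mice and 2.62 to 4.35 CPM in those of KO mice. In colon it was at 20.1 to 20.8 CPM in control mice and 7.35 to 11.5 CPM in KO mice, so the genotypes did not overlap in either tissue, with a log2 fold change of −1.13 ± 0.17 SE over both tissues. After adjustment over all genes this change did not pass in edgeR (adjusted p = 0.382) and passed in DESeq2 (1.25e-05), in limma-voom (0.0729), and in edgeR without the pair of ileal libraries with few muscle transcripts described next (0.0194). Within either tissue alone Slc39a8 passed in none of these fits (DESeq2 adjusted p = 0.748 in ileum and 0.161 in colon). The genotype comparisons within a tissue thus did not call the deleted gene itself. Markers of ileum and colon followed the tissue labels, but 3 ileal libraries stood apart. Control replicate 3 and KO replicate 1 of the ileum held 179 and 190 CPM of 10 smooth muscle markers in sum against 2370 to 3317 CPM in the other 4 ileal libraries, and 1583 and 1137 CPM of 10 markers of dividing crypt cells against 479 to 647 CPM. Ileal KO replicate 2 stood out by the colon gene Car1, at 2632 CPM against 3.40 to 144 CPM in the other ileal libraries and 14884 to 27124 CPM in colon. Car1 is 1 of 8 listed colon markers, and the levels of the others in this library are not given here. The calls of the 8 genes, and the list counts and named genes that the muscle-poor pair moved most, are given with and without that pair.

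The members lie on 7 chromosomes of GRCm38 (mm10), and each is protein coding. Promoter sequences were taken from RefSeq (GRCm38.p6), whose table held 5 of the 8 genes, not Fdps, Fdft1 or Sqle. Those of Hmgcs1, Mvd and Lss are shown, as the member with a match to a sterol element, a member with a pair of NF-Y matches close to its start, and the member with the smallest difference between the tissues. Each run is the 250 bases before the start, read 5′ to 3′ on the strand of the gene, with capitals on the letters of a sterol regulatory element (TCACNCCAC), NF-Y (CCAAT) or Sp1 (GGGCGG), or on their reverse complements. The Hmgcs1 run is chr13:119690101-119690350 on the plus strand, the Mvd run is chr8:122443423-122443672 on the minus strand, and the Lss run is chr10:76531355-76531604 on the plus strand.
Hmgcs1: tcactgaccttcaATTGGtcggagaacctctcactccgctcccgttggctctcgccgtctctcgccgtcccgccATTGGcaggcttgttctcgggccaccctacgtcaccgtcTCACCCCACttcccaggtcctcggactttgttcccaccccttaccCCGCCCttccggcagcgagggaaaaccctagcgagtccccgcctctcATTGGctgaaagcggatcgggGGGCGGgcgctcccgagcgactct
Mvd: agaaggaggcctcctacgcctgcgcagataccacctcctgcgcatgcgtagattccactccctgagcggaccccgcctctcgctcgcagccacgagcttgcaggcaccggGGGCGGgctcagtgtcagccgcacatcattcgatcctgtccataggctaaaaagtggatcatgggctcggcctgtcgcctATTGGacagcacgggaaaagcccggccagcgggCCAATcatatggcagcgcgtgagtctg
Lss: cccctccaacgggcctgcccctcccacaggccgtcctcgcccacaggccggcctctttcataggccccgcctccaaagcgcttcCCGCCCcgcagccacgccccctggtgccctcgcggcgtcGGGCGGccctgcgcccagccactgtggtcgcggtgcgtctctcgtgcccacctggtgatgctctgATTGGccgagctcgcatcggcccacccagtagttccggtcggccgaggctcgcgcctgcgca

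The windows searched ran from 250 bases before to 50 bases after the start. TCACNCCAC was found in 1.22% of 27025 promoters and, of the 5 members in the table, in Hmgcs1, where it begins 137 bases before the start as TCACCCCAC. CCAAT was found in 37.9% of all promoters and in 5 of 5 members, with 4 copies in Hmgcs1, 2 in Mvd, 2 in Idi1, 1 in Lss and 1 in Cyp51. GGGCGG was found in 35.9% of all promoters and in 5 of 5 members, with 3 copies in Hmgcs1, 2 in Lss and 1 in each of the others. None of these letters overlapped another motif in the members. Of the 11 promoters in the table for the other 11 genes of the pathway that were listed, 9 held CCAAT, 10 held GGGCGG and 0 held TCACNCCAC. These matches describe letters in a window and not binding.

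All 8 genes were expressed in every library, and all 8 were lower in colon than in ileum. Their summed level was 2219 ± 166 CPM in the ileum of control mice and 660 ± 97.5 CPM in the colon of control mice (mean ± SD, n = 3), a ratio of 3.36. In KO mice the sum was 1973 ± 266 CPM in ileum and 604 ± 103 CPM in colon. The lowest ileal library held 1699 CPM of the 8 genes and the highest colonic library 744 CPM. Per kilobase of exon, Hmgcs1 had the highest level of the 8 in the ileum of control mice (153 CPM per kb), followed by Cyp51 (93.7) and Idi1 (86.6), then Fdft1 (55.2) and Sqle (52.3), Fdps (38.9), Mvd (29.7) and Lss (5.2). With coefficients of variation of 9.62 to 22.6% between the 3 libraries, the neighbours Cyp51 and Idi1, and Fdft1 and Sqle, differed by less than their SD. The order depended on the length used. On the principal transcript alone, Fdps had the second highest mean at 118 CPM per kb, and Lss was again lowest at 12 CPM per kb.

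**Figure D1:**
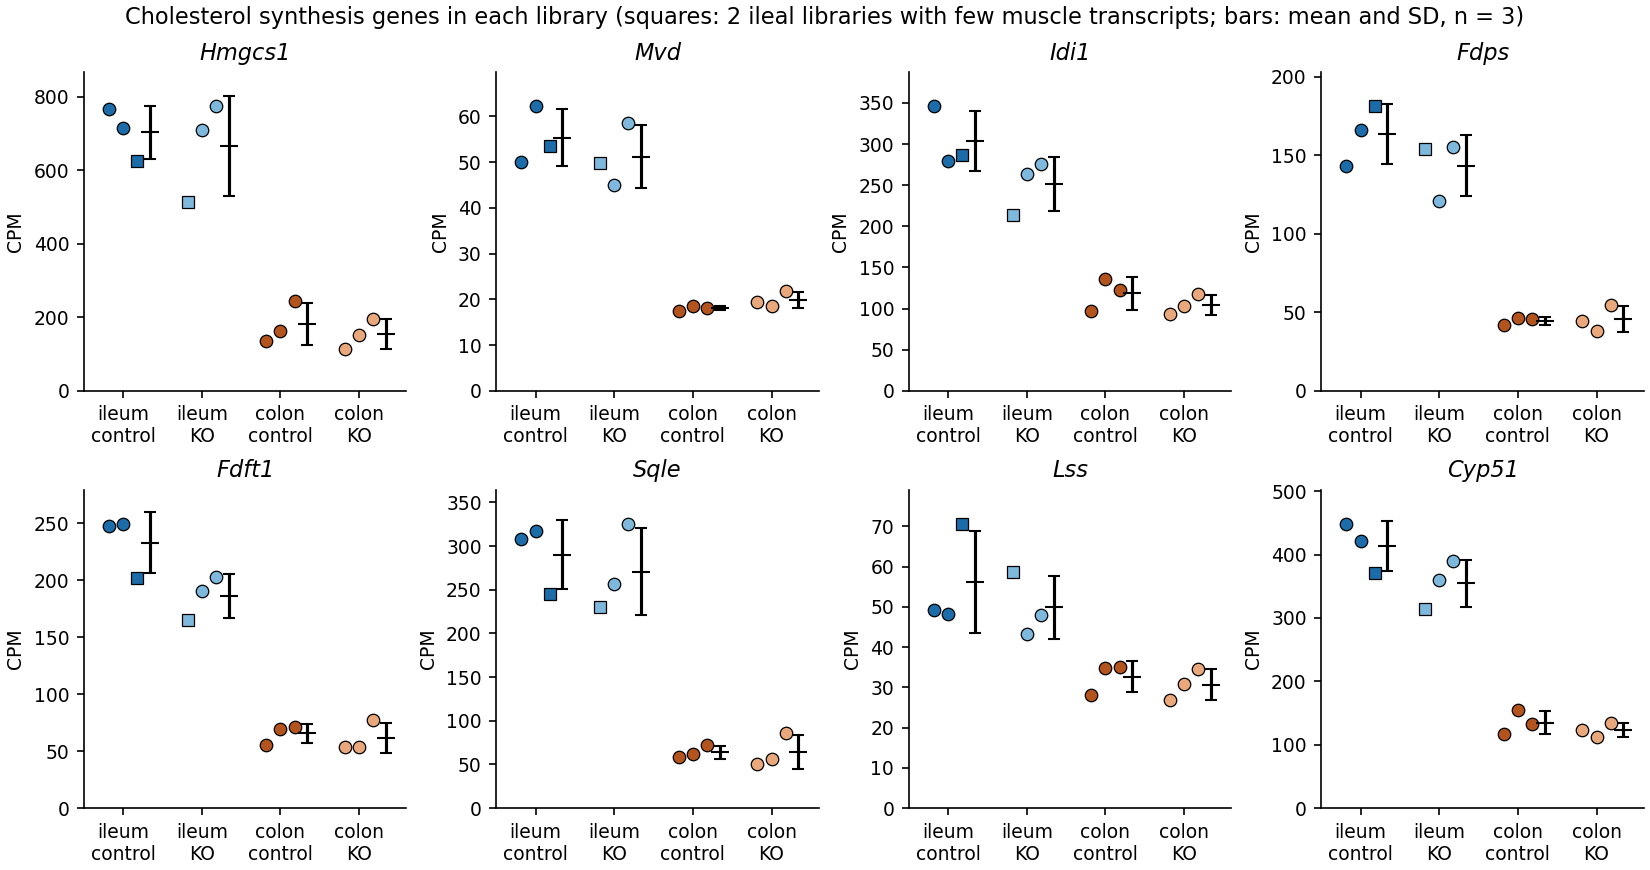
Level of each of the 8 genes in each library, in CPM on a linear axis from 0. Circles are libraries, squares are the 2 ileal libraries with few muscle transcripts, and bars are the mean and SD of the 3 libraries of a group. For each gene all 6 colonic libraries lie below all 6 ileal libraries, while control and KO overlap in most panels.

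The pathway opens with the joining of acetyl-CoA units. Hmgcs1 (chromosome 13, 119690379 to 119708260, plus strand) encodes the cytosolic synthase that makes HMG-CoA. In ileum it was at 767, 716 and 626 CPM in control replicates 1 to 3 and at 513, 711 and 774 CPM in KO replicates 1 to 3. In colon it was at 137, 163 and 245 CPM in control mice and at 114, 151 and 196 CPM in KO mice. Every colonic library lay below every ileal library, and the genotypes overlapped in both tissues. In control mice the level in ileum was 3.87-fold that in colon (log2 fold change, colon over ileum, −1.95 ± 0.26 SE, edgeR adjusted p = 2.09e-04), and in KO mice 4.34-fold (−2.12 ± 0.26, adjusted p = 1.22e-04).

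Mvd (chromosome 8, 122433601 to 122443422, minus strand) encodes the decarboxylase that forms isopentenyl diphosphate, and Idi1 (chromosome 13, 8885501 to 8892451, plus strand) the isomerase that turns it into dimethylallyl diphosphate. Mvd was at 50, 62.2 and 53.6 CPM in the ileal control libraries and at 17.6, 18.5 and 18.1 CPM in the colonic control libraries, a 3.06-fold difference (log2 fold change −1.61 ± 0.13 SE, edgeR adjusted p = 6.26e-06). In KO mice it was at 49.9, 45.0 and 58.6 CPM in ileum and at 19.3, 18.6 and 21.9 CPM in colon. The tissues did not overlap in either genotype, and the 3 colonic control libraries were the closest set of any member in any group, with a coefficient of variation of 2.66%. Idi1 was at 346, 279 and 286 CPM in the ileal control libraries and at 96.6, 136 and 123 CPM in the colonic ones (2.56-fold, −1.36 ± 0.17, adjusted p = 1.12e-04). In KO mice Idi1 was at 214, 264 and 276 CPM in ileum and at 93.2, 103 and 117 CPM in colon, so that the ileal genotypes just failed to overlap.

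Fdps (chromosome 3, 89093588 to 89101959, minus strand) encodes farnesyl diphosphate synthase, from whose product both squalene and the isoprenoid branch start. It ranged from 143 to 181 CPM in ileal and from 41.9 to 46.4 CPM in colonic control libraries (3.65-fold, log2 fold change −1.87 ± 0.16 SE, edgeR adjusted p = 7.99e-06), and from 121 to 155 CPM and 38.2 to 55.0 CPM in KO mice. Of the 75-base windows of the Fdps transcripts, 21.9% also occur in Gm43738, an overlapping gene model on the same strand that was listed at 0 in all libraries, and 7.47% occur in Gm3571. Idi1 shares 16.7% of its windows with Gm13502, and Fdft1 shares 5.21% with Gm6781. Counting could confuse such copies. The expected counts of Fdps were whole in 11 of 12 libraries (largest gap to a whole number 0.01). Those of Idi1 were whole in 1 library and those of Fdft1 in 2 (largest gaps 0.48 and 0.45). Those of Hmgcs1, which has no shared window, were whole in 0 (largest gap 0.45). How far copies affected the levels was not tested. Fdft1 (chromosome 14, 63145150 to 63179578, minus strand) encodes squalene synthase, the first enzyme committed to sterols. It was at 247, 250 and 202 CPM in the ileal control libraries and at 55.7, 69.7 and 71.2 CPM in the colonic ones (3.56-fold, −1.83 ± 0.18, adjusted p = 1.75e-05). In KO mice Fdft1 was at 165, 191 and 203 CPM in ileum and at 53.6, 53.9 and 77.0 CPM in colon, and KO replicate 3 of the ileum lay just above control replicate 3. Its 3′ end overlaps that of Ctsb on the other strand, a gene at a mean of 500 CPM in ileum and 370 CPM in colon, and reads of the shared stretch could be split wrongly if strand was not used in counting, which the sources do not state.

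Sqle (chromosome 15, 59315077 to 59331192, plus strand) encodes squalene epoxidase, which adds the first oxygen of the sterol, and showed the largest difference in control mice. It was at 308, 317 and 245 CPM in the ileal control libraries and at 58.2, 61.5 and 71.8 CPM in the colonic ones. In KO mice it was at 230, 257 and 326 CPM in ileum and at 51.0, 56.0 and 86.1 CPM in colon. The lowest ileal library of Sqle thus lay well above the highest colonic one, with a 4.55-fold difference in control mice (log2 fold change −2.18 ± 0.22 SE, edgeR adjusted p = 2.32e-05) and a 4.21-fold difference in KO mice (−2.07 ± 0.22, adjusted p = 3.44e-05). No 75-base window of Sqle was shared with another annotated gene.

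Lss (chromosome 10, 76531588 to 76557138, plus strand) encodes lanosterol synthase, which closes the sterol rings, and showed the smallest difference of the 8. It was at 49.3, 48.2 and 70.7 CPM in the ileal control libraries and at 28.2, 34.7 and 35 CPM in the colonic ones (1.72-fold, log2 fold change −0.78 ± 0.18 SE, edgeR adjusted p = 0.00752). In KO mice Lss was at 58.5, 43.3 and 47.9 CPM in ileum and at 26.8, 30.8 and 34.5 CPM in colon (1.63-fold, −0.70 ± 0.18, adjusted p = 0.0135). The highest values in each ileal group, 70.7 and 58.5 CPM, were in the libraries with few muscle and many crypt transcripts. Without that pair of libraries the log2 fold change of Lss was −0.60 ± 0.14 in control mice (edgeR adjusted p = 0.00691) and −0.56 ± 0.14 in KO mice (adjusted p = 0.00947). Cyp51 (chromosome 5, 4081145 to 4104746, minus strand) encodes the demethylase that acts on lanosterol. It ranged from 370 to 449 CPM in ileal and from 118 to 154 CPM in colonic control libraries (3.06-fold, −1.61 ± 0.15, adjusted p = 1.15e-05), and from 315 to 389 CPM and 113 to 134 CPM in KO mice. Its 3′ end overlaps that of Akap9 on the other strand, a gene at a mean of 174 CPM in ileum and 99.0 CPM in colon.

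Read together, all 8 members passed the threshold as lower in colon in control mice, where 19.6% of all genes tested did so and 16.2% passed as higher. The median log2 fold change of the 8 was −1.72 against 0.02 over all genes. In KO mice all 8 again passed as lower, beside 20.0% of all genes lower and 17.1% higher, with a median of −1.56 against 0.01. The values of the control libraries did not overlap between the tissues for any member, as for 20.4% of all genes in that direction, and the same held in KO mice, beside 24.9%. Over both genotypes, all 6 colonic libraries lay below all 6 ileal ones for 8 of 8 members and for 14.7% of all genes. A two-sided exact permutation test of log2(CPM + 0.5), with tissue exchanged within genotype, gave p = 0.005 for each member, the smallest p that the 400 arrangements allow. Libraries that do not overlap between the tissues fix this value, so the test adds nothing to the counts of non-overlap. All 8 stayed lower in colon under the other scalings tried, the smallest difference being that of Lss with library size as the only scaling (log2 fold change −0.57 in control mice and −0.43 in KO mice), which did not pass. That scaling moved the median of all genes to 0.24 in control and 0.29 in KO mice, and with it 66.4% and 70.8% of the called genes were higher in colon, against 45.3% and 46.1% in the fits reported here. Upper-quartile factors gave 55.2% and 58.3%.

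Markers of some cell types were also lower in colon, and those of others were not. Of 10 epithelial markers 7 passed as lower in colon in both genotypes, with a summed level of 17343 to 20879 CPM in ileal and 9565 to 10613 CPM in colonic libraries, and all 10 were above 0 in each group. Of 10 markers of dividing crypt cells 8 passed as lower in colon in control mice and 7 in KO mice, with sums of 479 to 1583 CPM in ileum and 225 to 266 CPM in colon. Among them the crypt gene Olfm4 was at a mean of 343 CPM in ileum and 0.016 CPM in colon of control mice, and at 139 CPM in ileum without control replicate 3, which held 751 CPM. Of 8 markers of T cells and myeloid cells 6 passed as lower in colon in both genotypes, with sums of 74.6 to 170 CPM in ileum and 55.4 to 134 CPM in colon. Of 7 markers of plasma and B cells 3 passed as lower, with sums of 299 to 1048 CPM and 259 to 481 CPM. Without the muscle-poor pair, 4 of these 7 were lower and 1 higher in control mice. Of 10 smooth muscle markers 0 passed in either direction (3 higher and 1 lower in control mice without the muscle-poor pair). With a score of the crypt markers as a term in the fit, 7 of 8 members passed in each genotype, and Lss did not (log2 fold change 0.03 ± 0.27 SE in control mice, edgeR adjusted p = 0.946). With a score of the epithelial markers as a term, a fit chosen after the data were seen, 0 of 8 passed in either genotype, with log2 fold changes from −1.77 to −0.95 and standard errors up to 0.95 in control mice. That term also reduced the calls over all genes from 5940 to 313 in control mice.

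The other genes of the pathway were read from a list of 11. In control mice 10 passed as lower in colon and 0 as higher, with a median log2 fold change of −1.35, and the same counts were found in KO mice with a median of −1.17. In the steps before Mvd, the kinases Mvk and Pmvk differed by −1.59 ± 0.17 SE and −1.61 ± 0.14 (edgeR adjusted p = 4.96e-05 and 7.99e-06). After Cyp51, the values ran from −1.89 ± 0.18 for Hsd17b7, a keto-reductase of the demethylation steps, to −0.51 ± 0.19 for Lbr, one of the sterol reductases (adjusted p = 0.0705). The exception was Dhcr7, the reductase that makes cholesterol from its 7-dehydro precursor, at a mean of 37.8 CPM in ileum and 42.9 CPM in colon (0.18 ± 0.35, adjusted p = 0.731). In control mice these values of Dhcr7 and Lbr rested on the muscle-poor pair. Ileal control replicate 3 held 59.5 CPM of Dhcr7 against 21.9 and 31.9 CPM in the other ileal control libraries, and without the pair Dhcr7 passed as higher in colon (0.65 ± 0.20, edgeR adjusted p = 0.0234). Lbr no longer passed in control mice (−0.24 ± 0.12, adjusted p = 0.159), so that 9 of 11 genes were lower and 1 higher. In KO mice without the pair, 10 of 11 genes passed as lower and 1 as higher.

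**Figure D2:**
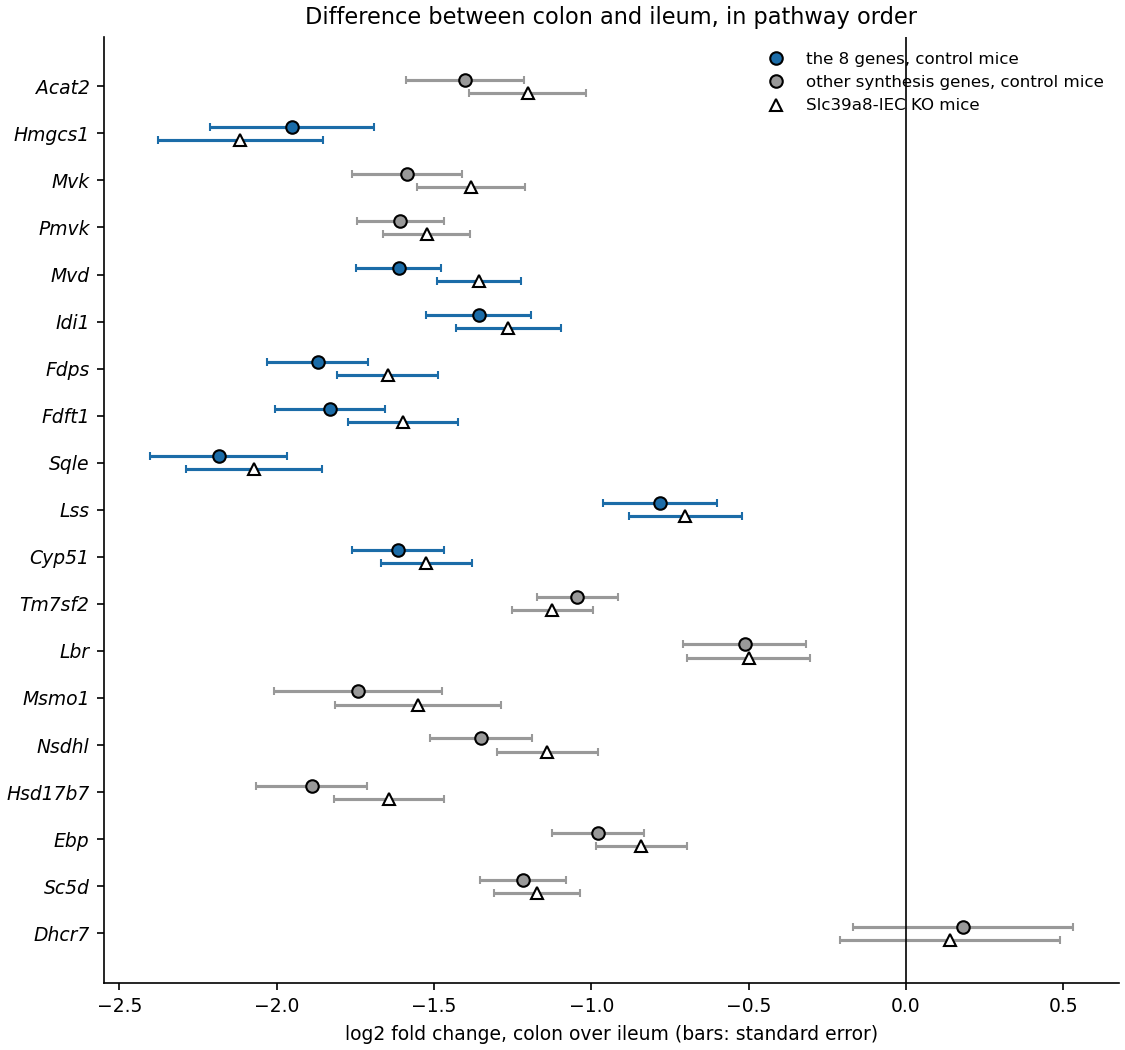
Difference between colon and ileum for 19 genes of cholesterol synthesis in pathway order, as log2 fold change with its standard error. Filled circles are control mice, open triangles Slc39a8-IEC KO mice, and blue marks the 8 genes. All lie below 0 except Dhcr7, and Sqle, Hmgcs1 and Hsd17b7 have the lowest values in control mice.

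Genes that share metabolites or control with the pathway were read in the same way, in control mice. Of 9 genes of the isoprenoid branch, which uses farnesyl diphosphate for protein prenylation, dolichol and ubiquinone, 1 passed as lower in colon and 2 as higher, with a median of −0.01. Of 13 genes of SREBP processing and sterol sensing 4 passed as lower and 1 as higher, with a median of −0.27. Srebf2 was at −0.67 ± 0.16 SE (edgeR adjusted p = 0.00794) and Insig1, the anchor that holds SCAP in the endoplasmic reticulum, at −0.91 ± 0.25 (adjusted p = 0.0166), whereas Scap was higher in colon, at 0.53 ± 0.17 (adjusted p = 0.0405). Of 10 genes of sterol uptake 4 passed as lower and 3 as higher. Npc1l1, the luminal cholesterol transporter, was at a mean of 772 CPM in ileum and 1.84 CPM in colon.

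Of 11 genes tested for sterol efflux and storage 6 passed as lower in colon and 0 as higher, among them the efflux pumps Abcg5 (244 against 10.6 CPM) and Abcg8 (136 against 6.64 CPM) and the apolipoprotein gene Apob (4104 against 188 CPM). Of 12 genes of fatty acid synthesis 3 passed as lower and 3 as higher, with a median of 0.16. Fatty acid synthase itself, Fasn, was at 0.17 ± 0.28 (edgeR adjusted p = 0.694). Ileal control replicate 3 held 109 CPM of Fasn against 46.4 and 58.6 CPM in the other ileal control libraries, and without the muscle-poor pair Fasn passed as higher in colon (0.59 ± 0.18, adjusted p = 0.0227). For the whole fatty acid list, 8 genes were then higher and 3 lower, with a median of 0.46. The 3 genes listed for ketone body formation, which passes through HMG-CoA made in mitochondria, all passed as higher in colon, with a median of 0.53.

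**Figure D3:**
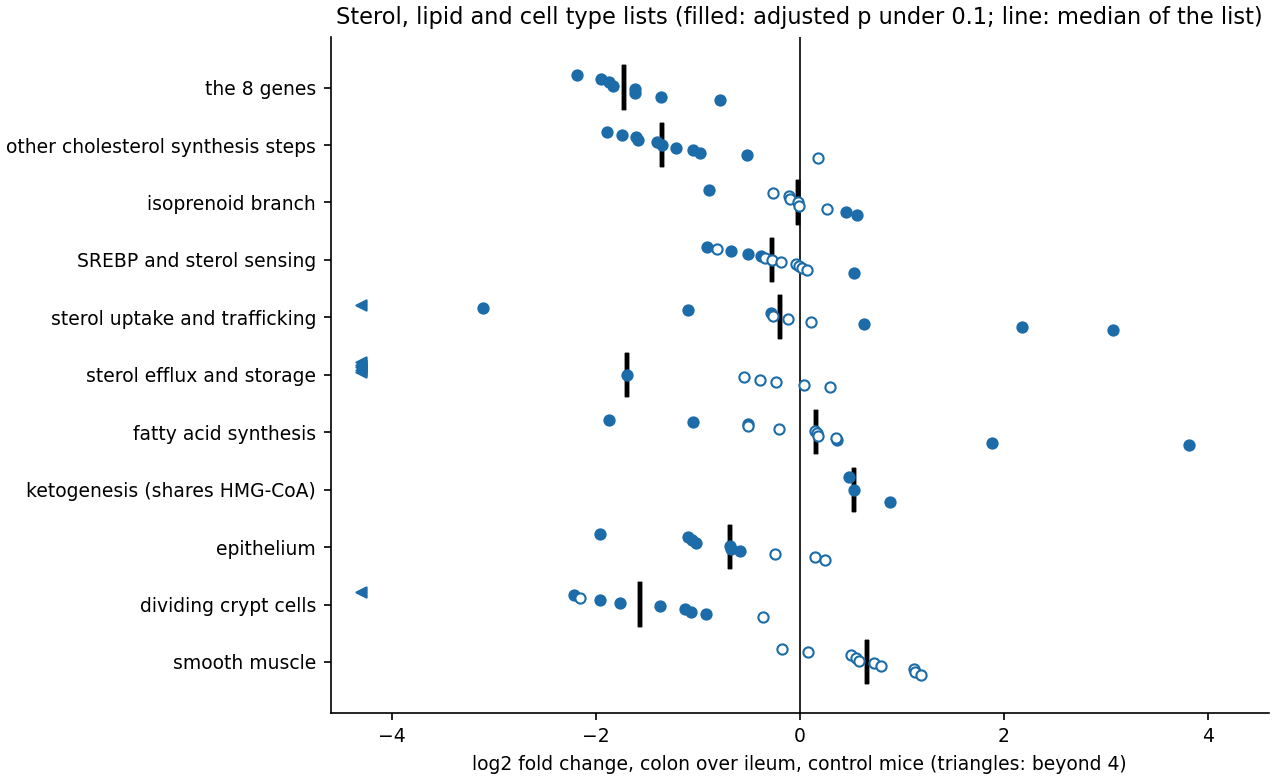
Difference between colon and ileum in control mice for the 8 genes and for lists of related genes and cell type markers, as log2 fold change per gene. Filled points passed an adjusted p of 0.1, black lines are list medians, and triangles at the edges lie beyond 4. The 8 genes and the other synthesis steps lie to the left with medians of −1.72 and −1.35, the isoprenoid branch is centred near 0, and ketogenesis lies to the right.

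The genotype comparison asks whether loss of epithelial Slc39a8 went with a change in these genes. In ileum 0 of 8 passed the threshold, as did 0% of all genes, and 0 of 8 had an unadjusted p under 0.05 in edgeR, where 1.52% of all genes did. The log2 fold changes, KO over control, were all below 0, from −0.32 ± 0.17 SE for Fdft1 to −0.08 ± 0.25 for Hmgcs1, with a median of −0.18. Each was smaller than 2 standard errors. Idi1 was the member whose KO libraries all lay below the control libraries (251 ± 32.8 against 304 ± 36.7 CPM, log2 fold change −0.27 ± 0.16, edgeR adjusted p = 1), as was found for 1.57% of all genes. The sign was not stable for Hmgcs1 and Sqle, which turned to 0.079 and 0.0060 without ileal KO replicate 1, nor for Lss, which turned to 0.037 without ileal control replicate 3, both of them libraries with few muscle transcripts.

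In colon 0 of 8 members passed, beside 0% of all genes, and 0 had an unadjusted p under 0.05, where 2.33% of all genes did. The log2 fold changes ran from −0.24 ± 0.25 SE for Hmgcs1 to 0.14 ± 0.13 for Mvd, with 5 of 8 below 0 and a median of −0.09. The signs of Fdft1 and Lss turned to 0.011 and 0.010 with library size as the only scaling, and those of Hmgcs1, Fdps and Sqle turned when 1 of the colonic libraries was left out. For Mvd the KO libraries, at 18.6 to 21.9 CPM, all lay above the control libraries, at 17.6 to 18.5 CPM, as for 6.98% of all genes in that direction. This was a difference of less than 2 CPM between the group means (19.9 ± 1.75 against 18.1 ± 0.48 CPM, edgeR adjusted p = 1).

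In the fit to all 12 libraries, which takes out the difference between tissues, 0 of 8 members passed, beside 0% of all genes, and 0 had an unadjusted p under 0.05, beside 3.87% of all genes. Idi1 came nearest, at −0.23 ± 0.11 SE (edgeR unadjusted p = 0.0612, adjusted p = 0.998), followed by Fdft1 at −0.21 ± 0.12 and Cyp51 at −0.18 ± 0.10. The exact permutation test, two-sided with genotype exchanged within tissue, gave unadjusted p = 0.065 for Idi1, 0.085 for Cyp51, 0.14 for Fdft1 and 0.35 to 0.9 for the other 5. Mvd was at 0.01 ± 0.10 and fell to just below 0 with upper-quartile scaling, and Sqle was at −0.04 ± 0.14 and rose to 0.04 with library size as the only scaling. For the difference of the genotype effects between the tissues, colon minus ileum, 0 of 8 passed, beside 0% of all genes, 0 had an unadjusted p under 0.05, beside 1.02%, and values ran from −0.17 ± 0.36 for Hmgcs1 to 0.25 ± 0.19 for Mvd. These fits share their libraries with the comparisons within each tissue. Of the other 11 synthesis genes 0 passed in any genotype comparison. DESeq2 and limma-voom also called 0 of the 8 members by genotype, where DESeq2 called 2 genes in ileum, 0 in colon and 4 over both tissues of 28017 tested, and limma-voom called 1, 0 and 1 of 16558.

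**Figure D4:**
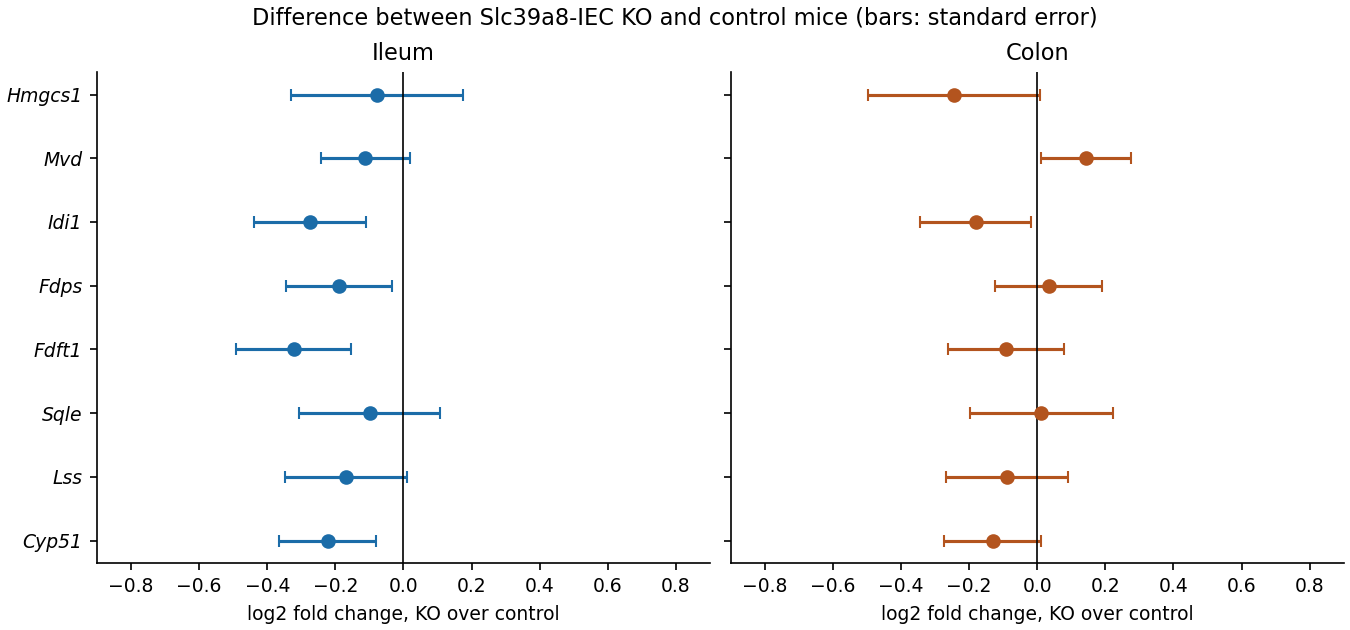
Difference between Slc39a8-IEC KO and control mice for the 8 genes in ileum (left) and colon (right), as log2 fold change with its standard error. All 8 points are below 0 in ileum and 5 of 8 in colon, and they run from −0.32 (Fdft1, ileum) to 0.14 (Mvd, colon).

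The 8 genes moved together across libraries. Over the 12 libraries the 28 pairwise correlations of log2 CPM had a median Pearson r of 0.975, between 0.865 and 0.993, a description that rests mainly on the step between the tissues, which the points share. After subtracting each group mean, the median was 0.458, between −0.21 and 0.923, with Fdft1 and Sqle as the closest pair. Lss was near 0 or below with most members, from −0.21 with Cyp51 to 0.137 with Mvd, but reached 0.645 with Fdps. Fdps was also low with Idi1 (0.062), Hmgcs1 (0.152) and Cyp51 (0.157), and lay between 0.359 and 0.734 with the other members. Mvd was at 0.128 with Idi1. The libraries of highest mean after subtraction were KO replicate 3 of colon and of ileum. In KO replicate 3 of the colon all 8 members were at the highest level of their group, for example Sqle at 86.1 CPM against 51.0 and 56.0. Among genes outside the 8, the 10 most like their mean over the 12 libraries included Pmvk (r = 0.992), Smoc2 (0.991), Clca4b (0.991), Anpep, Fam84a, Defa34, Mmp7 and Apoa1 (0.986). After group means were subtracted, the most alike were Cog2 (0.991), Mob3a (0.966), Nr2f2 (0.946), Hspa1b, Akna, Ptprc, Smoc2, Trim35, Hspa1a and Bend4 (0.904).

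Between the pair of muscle-poor ileal libraries and the other 4, the pathway did not shift as a block. Lss lay above the range of the other 4 (ratio of means 1.37), Hmgcs1 and Sqle lay below it (0.767 and 0.787), and the other 5 members overlapped it, where 23.2% of all genes lay above and 27.2% below. The late reductase gene Dhcr7 lay above, at 59.5 and 62.4 against 21.9 to 33.2 CPM. Msmo1, which oxidises the methyl groups of sterols after Cyp51, lay below, at 434 and 323 against 490 to 851 CPM. Of 12 genes of fatty acid synthesis 7 lay above and 2 below, and Srebf1, whose product drives that synthesis, lay above by a ratio of 2.28. Insig2, in contrast, lay below by a ratio of 0.422. The 2 libraries were told apart by their muscle transcripts and are not a group of the study, so no test is given, and the part of crypt or other cells in these values was not tested.

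**Figure D5:**
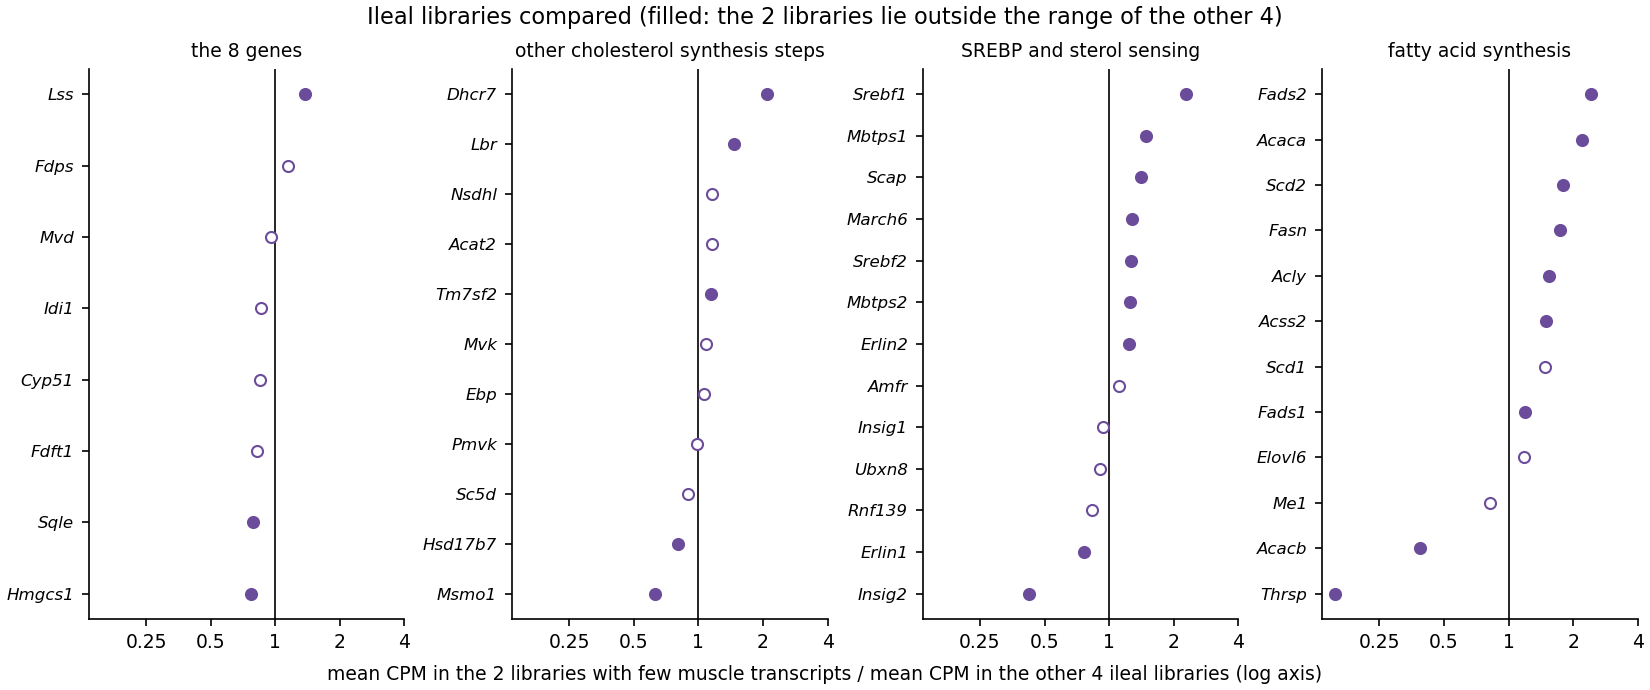
Ratio of the mean CPM in the 2 ileal libraries with few muscle transcripts to that in the other 4 ileal libraries, on a log axis, for each gene of 4 lists. Filled points mark genes for which both libraries lie outside the range of the other 4. Ratios of the 8 genes stay between 0.767 and 1.37, while Dhcr7, Srebf1, Fads2 and Acaca lie above 2.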

How the data were processed

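The authors aligned reads to mm10 with STAR and deposited 1 table of expected counts per gene and library, estimates that need not be whole and are not normalized. The study's reporting summary names a Gencode annotation, unique reads, UMI-tools and FeatureCounts; the tool behind the expected counts and its use of strand are not given in the sources used here. Of these values 93.7% were whole within 0.005. The 92 spike-in lines held 0 counts and were left out. Expected counts were rounded, filtered by group with filterByExpr and fitted with edgeR 4.0.16 (R 4.3.3) in a model of 4 groups, or with tissue and genotype as terms for genotype over both tissues, taking libraries as independent. The quasi-likelihood test was adjusted by the Benjamini-Hochberg method over 16558 genes, with a threshold of 0.1. P-values rest on the spread between these libraries. The steps were also run on simulated data, whose outcome is not given and is not used as support here. Exact permutation tests added 0.5 to CPM. GENCODE M21 gave symbols for 53620 identifiers, coordinates and exon lengths. Shared 75-base windows mark copies that counting could confuse.

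The 8 genes and the 18 lists with 154 genes were chosen with earlier results of these data known. Named genes are the members, the other synthesis and SREBP genes, at most 4 genes of smallest p per other list, Slc39a8 and the 10 most alike genes. Car1, Fasn, Acaca and the genes that overlap or share windows with members stand outside this rule and were named after their values were seen. A few genes that the rule would name are not reported here and were taken out of the lists. Lists not described in the text, for adipocytes and for enteric neurons and glia, passed with 0 of 7 and 0 of 6 genes in control mice (0 and 2 without the muscle-poor pair). Ileum identity passed there with 7 of 8 lower and colon identity with 6 of 6 higher in colon. In KO mice 0 of 7 adipocyte genes passed, and 4 of 6 genes of enteric neurons and glia passed as higher in colon. Ileum identity had 7 of 8 lower and colon identity 4 of 6 higher in KO mice. Alternatives were DESeq2 1.42.0, limma-voom (limma 3.58.1), other scalings, filters and thresholds, unrounded values, a replicate block, the 6 libraries compared alone, each library left out, and marker scores as terms. Figures were drawn with matplotlib 3.10.9.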

Additional observations from a re-analysis of the deposited data

How the results depend on the processing

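The 8 calls between tissues, in control and in KO mice, were all kept with DESeq2, limma-voom, RLE and upper-quartile factors, both other filters, unrounded values, a threshold of 0.05, the 6 libraries compared alone, without the pair of ileal libraries with few muscle transcripts, with a muscle score as a term and without each library in turn. With library size only or a crypt score as a term 7 were kept, and the median log2 fold change of the members with library size only was −1.49 in control and −1.28 in KO mice. With the epithelium score as a term, added after the data were seen, 0 of the members and 0 of the other synthesis genes were called in either genotype. The genotype comparisons gave 0 members under every alternative. Whether replicate numbers pair the libraries could not be told from their correlations. Over all pairs of groups, most of which set control against KO mice, same-numbered libraries correlated at −0.694 to 0.404. In 6 of 18 cases a library correlated best with its own number. Between ileum and colon of the same genotype, same-numbered libraries correlated at −0.080 to 0.165 in control mice and 0.051 to 0.251 in KO mice. With the replicate number as a block, 8 of 8 tissue calls and 0 genotype calls were found, calls over all genes in control mice moved from 5940 to 5333, and Sqle by genotype in colon was at −0.0070. The fit over both tissues and the difference between tissues were not run on 6 libraries alone.

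Other signs turned as follows, all as log2 fold changes. With the crypt score, Lss was at 0.030 between tissues in control mice and at −0.034 for the difference between tissues. By genotype in colon, Fdft1 and Lss were at 0.011 and 0.010 with library size only, and Sqle at −0.020 with limma-voom and −0.038 with the epithelium score. By genotype over both tissues, Mvd was at −2.82e-05 with upper-quartile factors, −0.0057 with limma-voom and −0.055 with the epithelium score, and Sqle at 0.040 with library size only.

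Leaving out 1 library turned the sign of the following values, given as ranges. By genotype in ileum, Hmgcs1 ran from −0.20 to 0.079, Sqle from −0.25 to 0.0060 and Lss from −0.30 to 0.037. By genotype in colon, Hmgcs1 ran from −0.44 to 0.047, Fdps from −0.10 to 0.15 and Sqle from −0.24 to 0.14, with the lowest value of each without KO replicate 3. By genotype over both tissues, Mvd ran from −0.031 to 0.070 and Sqle from −0.17 to 0.0095. For the difference between tissues, Hmgcs1 ran from −0.35 to 0.14, Idi1 from −0.034 to 0.20, Sqle from −0.13 to 0.26 and Lss from −0.11 to 0.21. The cause was not tested. With 3 libraries a group, an exact test within 1 tissue cannot give a genotype p under 0.1.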
